A study of Mus musculus with 42 samples.

Results

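The 10 members of the Notch pathway described here were read in RNA-Seq of mouse colon, as 10 of 20462 genes listed over 9 tables of normalized counts. The members were the ligands *Dll1*, *Dll3*, *Dll4* and *Jag1*, the receptors *Notch1* and *Notch2*, *Lfng* and *Neurl1a*, which modify receptors and ligands, and the transcription factors *Hes1* and *Hes6*. They were taken by gene symbol, and all of them were found in each table. The study asked how MTG16 (CBFA2T3), a transcriptional corepressor, acts in colon epithelium, and compared WT mice with littermates lacking it (Mtg16-null, here *Mtg16-/-*) or homozygous for P209T, a proline-to-threonine substitution (here *Mtg16 T/T*) that weakens binding to E proteins, which are basic helix-loop-helix transcription factors. All mice were C57/BL6 and at least 8 weeks old, and the mutant lines were kept as independent colonies bred from heterozygotes, each with its own WT littermates. The mutation was carried by all cells in both lines, so the epithelium and any other cell in an isolate were mutant alike.

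The 42 libraries fell into 14 groups. Untreated (baseline) crypts, isolated by chelation, came from the 5 cm of proximal colon next to the cecum (2 *Mtg16-/-* and 2 WT, 2 *Mtg16 T/T* and 2 WT) or the 5 cm of distal colon next to the anus (4 *Mtg16-/-* and 4 WT, 4 *Mtg16 T/T* and 3 WT). Distal crypts were also taken after dextran sulfate sodium (DSS), which injures colon epithelium, given at 2% in drinking water for 5 days and followed by 4 days of water (4 *Mtg16-/-* and 3 WT, 3 *Mtg16 T/T* and 3 WT). Whole distal tumors were dissected after azoxymethane (AOM, 10 mg/kg), a colon carcinogen, and 3 cycles of 3% DSS, each of 4 days with 16 days of water after it (3 *Mtg16 T/T* and 3 WT). No *Mtg16-/-* tumors were among these samples.

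Notch signaling passes between neighboring cells. A ligand of the Delta or Jagged family on one cell binds a Notch receptor on the next, the receptor is cleaved, and its freed intracellular part enters the nucleus, joins RBPJ and switches on target genes such as *Hes1*. In the intestinal crypt, cells that receive the signal repress the secretory factor ATOH1 and become absorptive, whereas cells that display Delta ligands become goblet or enteroendocrine cells. Bulk libraries cannot tell fewer or more cells of a type from less or more RNA per cell.

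The 38 libraries whose reads could be recovered from the tables held 32231389 to 74661922 reads (median 46659625), and the normalized totals of the 4 proximal mutant libraries were 44178091 to 49481757. *Cbfa2t3*, the targeted gene, was lower but not absent in *Mtg16-/-* libraries. Its normalized count was 725 ± 277 (SD, n = 4) in distal *Mtg16-/-* crypts against 1514 ± 341 (SD, n = 4) in WT, with overlapping groups, and 526 ± 83.2 (SD, n = 4) against 2128 ± 349.9 (SD, n = 3) after DSS, where the groups did not overlap. The 12 enteroendocrine markers examined (among them *Chga*, *Neurog3* and *Gcg*) had a summed normalized count of 34331 to 43797 in distal *Mtg16-/-* crypts against 13490.3 to 15895 in WT, and all 12 had positive fold changes there, 4 of them past the limma threshold. Epithelial markers (*Epcam*, *Krt8* and 7 others) summed to 874535 to 1037374 and 916219 to 1020578 in the same libraries, and the 7 listed of 8 endothelial markers to 199 to 399 and 277 to 391. A single mutant library stood apart in each of 3 tables in smooth muscle markers, with a summed count of up to 2994 in proximal *Mtg16-/-*, 1181 in proximal *Mtg16 T/T* and 1675 in distal *Mtg16 T/T* against at most 81.3 in WT of these tables. Labels do not state that replicates came from separate mice, so p-values measure the spread between these libraries.

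The members lie on separate loci of the mouse genome (GRCm38, GENCODE vM21). *Dll3* (ENSMUSG00000003436.11) is at chr7:28293553-28302238, minus strand, *Dll1* at chr17:15367354-15376872, minus strand, *Dll4* at chr2:119325784-119335962, plus strand and *Jag1* at chr2:137081456-137116644, minus strand. *Notch1* is at chr2:26457903-26516663, minus strand and *Notch2* at chr3:98013527-98150361, plus strand. *Lfng* (ENSMUSG00000029570.5) is at chr5:140607320-140615545, plus strand and *Neurl1a* (ENSMUSG00000006435.16) at chr19:47178820-47259441, plus strand. *Hes1* is at chr16:30064384-30067796, plus strand and *Hes6* at chr1:91411483-91414038, minus strand. Annotated transcripts on the opposite strand overlap *Dll1*, *Dll4*, *Notch1* and *Neurl1a*, and since the use of strand in counting was not given in the sources used here, reads of such partners cannot be told apart.

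The sequence just upstream of a start site can be bound by proteins of these families, so it is shown for 3 members: *Neurl1a* and *Dll3*, on which the genotype results turn, and *Lfng*, a background example of a Notch target. The letters searched were CANNTG (the E box, bound by E proteins and their partners), CACNAG (the N box, bound by HES proteins) and TGGGAA (the core bound by RBPJ), on both strands. CANNTG reads alike on either strand, and TTCCCA is TGGGAA on the other strand. Sequences are from RefSeq (GRCm38.p6), 5′ to 3′ on the gene's strand and ending at the base before the RefSeq start, or before the GENCODE gene for *Lfng*. Capitals mark E boxes and RBPJ cores, and the 1 N box of the *Lfng* stretch is left in lower case.
Neurl1a, chr19:47178570-47178819, plus strand: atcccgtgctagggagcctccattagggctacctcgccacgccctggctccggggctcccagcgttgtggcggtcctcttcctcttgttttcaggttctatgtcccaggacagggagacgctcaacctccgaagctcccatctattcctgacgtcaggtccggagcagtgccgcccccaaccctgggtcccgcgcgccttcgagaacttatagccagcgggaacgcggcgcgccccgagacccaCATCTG
Dll3, chr7:28301786-28301815, minus strand: aaatataagactccggcatccagCAGCTGc
Lfng, chr5:140607091-140607319, plus strand: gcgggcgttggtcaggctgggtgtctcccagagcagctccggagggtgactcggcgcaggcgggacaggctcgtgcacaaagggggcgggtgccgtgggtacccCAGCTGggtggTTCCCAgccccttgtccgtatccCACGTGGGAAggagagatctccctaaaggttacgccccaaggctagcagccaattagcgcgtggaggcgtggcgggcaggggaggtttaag
The *Neurl1a* stretch held 1 E box, starting 6 bases before the start, and the *Dll3* stretch of 30 bases held 1, starting 7 bases before it. The *Lfng* stretch held 2 E boxes and 2 RBPJ cores, 1 on each strand, and its second E box overlaps the second core. Of the 10 members, 9 had an entry, with 11 promoters of 250 bases between them, of which 8 held an E box, 5 an N box and 1 an RBPJ core. Among 32851 mouse promoters of that length the shares were 66.2% for the E box, 36.7% for the N box and 21.6% for the RBPJ core. An E box that started in the last 10 bases was found in 1.97%. *Neurl1a* and *Dll3*, whose E boxes lie in that window, were shown for their genotype results, so this share is not a test of them. No entry was found for *Hes1*. The 30 bases of *Dll3* lie inside its GENCODE gene, which starts further upstream. A match is a run of letters, and binding was not measured.

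In WT crypts at baseline the effectors had the most transcript and *Dll3* the least. Levels between genes are given as normalized count per kb of the longest coding transcript. In the distal colon *Hes6*, a HES protein that opposes HES1, stood at 2439 ± 95.9 (SD, n = 7) per kb and *Hes1*, the repressor that carries the Notch response, at 2009 ± 392 (SD, n = 7) per kb. *Lfng*, the glycosyltransferase that sets which ligands a receptor answers, came next at 368 ± 31.4 (SD, n = 7) per kb. *Dll1*, *Dll4* and *Notch1* had per-kb levels of 241 ± 41.5 (SD, n = 7), 238 ± 38.7 (SD, n = 7) and 227 ± 45.9 (SD, n = 7). These 3 genes overlapped in order, as *Hes6* did with *Hes1* and *Lfng* with *Dll1*. *Jag1* had 117 ± 12.1 (SD, n = 7) per kb and *Notch2* 53.4 ± 11.9 (SD, n = 7) per kb, neither overlapping the next gene in order. *Neurl1a*, a ubiquitin ligase that acts on Notch ligands, had 9.88 ± 2.3 (SD, n = 7) per kb, and *Dll3*, a divergent Delta ligand that acts inside the cell that makes it, 3.91 ± 0.943 (SD, n = 7) per kb. Proximal WT crypts ranked *Hes1* first at 1786 ± 441 (SD, n = 4) per kb, overlapping *Hes6* at 1457 ± 122 (SD, n = 4), and again ended with *Neurl1a* at 20.3 ± 8.68 (SD, n = 4) and *Dll3* at 1.93 ± 0.468 (SD, n = 4).

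**Figure D1:**
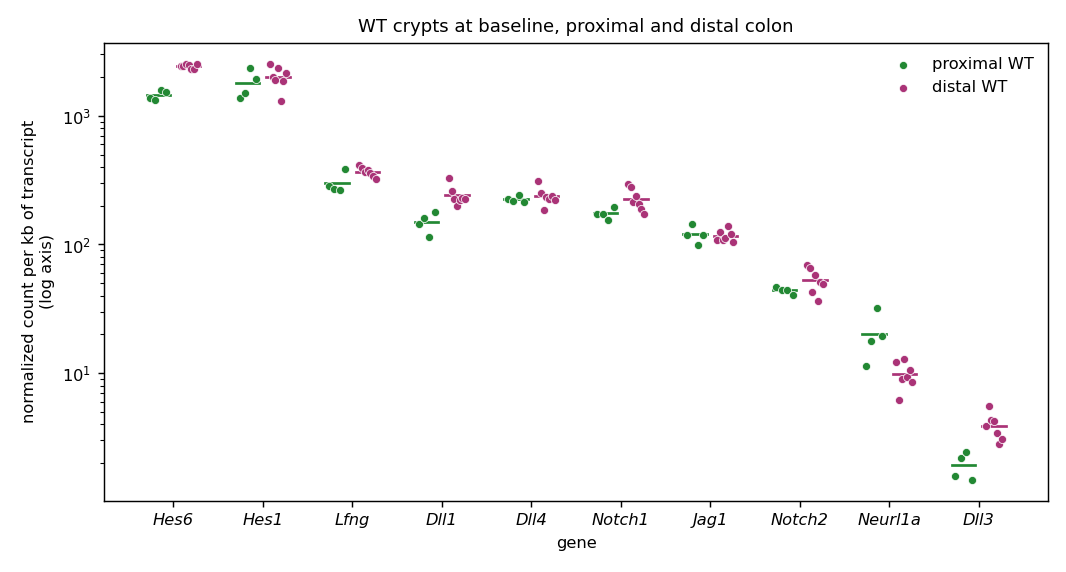
Normalized count per kb of transcript (log axis) of the 10 genes in 4 proximal and 7 distal WT libraries at baseline. Each point is a library and each line the mean of its segment. *Hes6* and *Hes1* lie at or above 1298 per kb in every distal library, and *Dll3* lies lowest, at 2.8 to 5.6 per kb.

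*Dll3* had a higher mean in mutant than in WT libraries in all 7 genotype comparisons, which share no library, and its groups did not overlap in 6 of them. In distal baseline crypts the normalized counts were 155, 46.1, 34.1 and 126 in the 4 *Mtg16-/-* libraries and 10.5, 15.1, 11.7 and 11.5 in the 4 WT. Every *Mtg16-/-* library lay above every WT library, though the 4 mutants fell into a higher and a lower pair, and the WT counts rested on 8 to 18 reads. The log2 fold change was 2.53 ± 0.49 (SE), with a limma adjusted p of 0.116 over all genes tested and an exact permutation p of 0.0286, two-sided, the smallest that 4 against 4 allows. The difference therefore missed the threshold of 0.05 by limma, and DESeq2 on the recovered reads gave an adjusted p of 8.31e-05. Without *Mtg16-/-* replicate 2 the limma adjusted p was 0.0381.

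Proximal *Mtg16-/-* crypts had *Dll3* counts of 16.8 and 45.9 against 6.87 and 4.13 in WT, a log2 fold change of 2.18 (limma adjusted p = 0.705). In *Mtg16 T/T* mice the proximal counts were 15.9 and 17.1 against 4.02 and 5.58 in WT, a log2 fold change of 1.60 (limma adjusted p = 0.392). The distal counts were 32.2, 30.6, 17.2 and 55.1 in *Mtg16 T/T* against 8.35, 6.86 and 7.45 in WT, a log2 fold change of 1.91 ± 0.39 (SE; limma adjusted p = 0.526, DESeq2 0.0214). None of these groups overlapped, and none passed by limma. In these 3 tables *Dll3* passed the minimum mean count of 10 only through the mutant group, and with no such minimum its limma adjusted p was 0.744, 0.409 and 0.634, in the order given. Enteroendocrine markers stood higher in the same mutants, with summed counts of 25495 to 38815 against 18826 to 22779 in proximal *Mtg16-/-*, 25547 to 31588 against 17208 to 20525 in proximal *Mtg16 T/T* and 16885 to 25134 against 13177 to 14918 in distal *Mtg16 T/T*, and their part in the *Dll3* values was not tested.

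After DSS, *Dll3* stood at 128, 103, 87.1 and 174 in the 4 *Mtg16-/-* libraries against 50.8, 18.6 and 23.7 in the 3 WT, with no overlap. The log2 fold change was 2.03 ± 0.40 (SE), and the limma adjusted p of 0.0581 missed the threshold. Same-numbered libraries of this table deviated together (r from 0.317), a pairing read from these data and not from the labels. *Mtg16-/-* replicate 4, which has no WT of its number, had r = 0.334 with WT replicate 1. With the replicate number as a block *Dll3* was called by limma, at 1.85 on the log2 scale (adjusted p = 0.00697), 1 of 10 members against 8.78% of all genes. Replicate 4 has no partner and adds nothing to the genotype difference in that fit. *Dll3* was also called by DESeq2 (adjusted p = 0.000349), with the length trend removed (0.0441 by limma) and without WT replicate 1 (0.0339 by limma). Myeloid markers moved with genotype here, with summed counts of 6128 to 19612 in *Mtg16-/-* against 945 to 3559 in WT, and enteroendocrine markers did so too, with 29199.8 to 31038 against 15758 to 21743. Stem cell marker sums were lower in *Mtg16-/-*, at 16363 to 18347 against 19735 to 22842 (1 of 6 with a positive fold change). Their part in the *Dll3* difference was not tested.

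The 3 *Mtg16 T/T* libraries after DSS had *Dll3* counts of 66.5, 70.1 and 95 against 34.6, 37.9 and 19.8 in WT, again apart, with a log2 fold change of 1.33 ± 0.36 (SE; limma adjusted p = 0.319, DESeq2 0.0463). Goblet markers in these libraries summed to 690008 to 789427 in *Mtg16 T/T* against 1141617 to 1309494 in WT, myeloid markers to 1993 to 2415 against 638 to 1433 and plasma and B cell markers to 746 to 883 against 227 to 403, all apart. Here and elsewhere the goblet sums hold 8 of 9 markers, since *Muc2* was not listed or had no counts. Of the markers tested in each list 2 of 8, 7 of 7 and 5 of 5 had positive fold changes. Enteroendocrine sums overlapped, at 23267 to 27662 and 19065 to 24731, while 11 of 12 of these markers had a positive fold change (median log2 0.76, beside 0.79 in *Mtg16-/-* after DSS). Their part in the *Dll3* values was not tested. In tumors the counts were 66.3, 101 and 155 in *Mtg16 T/T* and 56.9, 44 and 69.8 in WT, which overlapped (log2 fold change 0.84 ± 0.36, SE; limma adjusted p = 0.998). Enteroendocrine markers stood apart in the tumors, at 6322 to 10587 in *Mtg16 T/T* and 2813 to 6247 in WT (10 of 11 tested with a positive fold change), and their part was not tested. The genotype difference of *Dll3* was not shown to depend on segment, allele or DSS. The distal minus the proximal log2 fold change was 0.35 ± 0.87 (SE), adjusted p = 0.999 by limma, for *Mtg16-/-*. That of distal *Mtg16-/-* minus *Mtg16 T/T* was 0.62 ± 0.63 (SE), adjusted p = 0.958, and that of *Mtg16-/-* after DSS minus baseline was -0.50 ± 0.64 (SE), adjusted p = 0.999, both by limma.

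*Neurl1a* was the 1 member called between genotypes by limma, and it rose in distal *Mtg16-/-* crypts, where 0.239% of all genes tested were called. The authors had reported it as upregulated in these libraries, so the call is not independent of the choice of members. The 4 *Mtg16-/-* libraries had normalized counts of 189, 227, 176 and 263, and the 4 WT had 52.4, 26.6, 38.9 and 55.2. The lowest *Mtg16-/-* library was thus more than 3 times the highest WT library. The mean was 4.94-fold that of WT, and the log2 fold change was 2.31 ± 0.27 (SE; limma adjusted p = 0.017, edgeR 0.0233, DESeq2 4.06e-13), with an exact permutation p of 0.0286. Replicates 1 and 2 and replicates 3 and 4 of both genotypes carry different request numbers in the labels (5094 and 4149). Within 5094 the log2 fold change was 2.44 (limma adjusted p = 0.792) and within 4149 it was 2.19 (0.538 by limma), each with 2 libraries a genotype. Adding that number to the fit gave a limma adjusted p of 0.0509. When 1 library was left out it lay between 0.00998 and 0.084, and the call held only without *Mtg16-/-* replicate 2. The part of the enteroendocrine markers, which moved with *Neurl1a* in these libraries, was not tested.

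Elsewhere *Neurl1a* did not pass between genotypes. Its counts in proximal crypts were 266 and 260.5 in *Mtg16-/-* against 144 and 86.8 in WT (log2 fold change 1.23, limma adjusted p = 0.496). Those of *Mtg16 T/T* were 88.9 and 119.7 against 46.2 and 71.6 proximally (0.83 on the log2 scale, limma adjusted p = 0.397) and 81.3, 70.4, 117 and 45.9 against 36.5, 41.1 and 33 distally (1.00, limma adjusted p = 0.863). All 4 baseline comparisons had mutant libraries above every WT library. Enteroendocrine markers stood apart in the same 4, with the sums given above, and their part in the *Neurl1a* values was not tested. After DSS the *Mtg16-/-* counts of 74.8, 58.9, 79 and 95.8 still lay above the WT counts of 53, 54.7 and 53.8, by a log2 fold change of 0.49 (limma adjusted p = 0.534). The *Mtg16 T/T* counts of 19.3, 50.1 and 27 overlapped the WT counts of 45.9, 58 and 49.1 and had a lower mean, with a log2 fold change of -0.75 (limma adjusted p = 0.703).

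Tests of these differences did not pass over all genes. The log2 fold change of *Neurl1a* in *Mtg16-/-* crypts after DSS minus that at baseline was -1.83 ± 0.38 (SE), adjusted p = 0.221 by limma, with adjusted p between 0.0517 and 0.534 over the alternatives. For *Mtg16 T/T* the same difference was -1.75 ± 0.51 (SE), adjusted p = 0.28 by limma. Distal *Mtg16-/-* minus *Mtg16 T/T* was 1.31 ± 0.41 (SE), adjusted p = 0.958, and *Mtg16-/-* distal minus proximal was 1.09 ± 0.41 (SE), adjusted p = 0.999, both by limma. Over the 5 such differences, 0 of 10 members passed by limma, and the unadjusted p was under 0.05 for 6 of 50 tests. These were 2 members for *Mtg16-/-* (3.58% of all genes) and 0 for *Mtg16 T/T* (4.28%) in distal minus proximal, 1 in distal *Mtg16-/-* minus *Mtg16 T/T* (2.17%), and 1 for *Mtg16-/-* (3.27%) and 2 for *Mtg16 T/T* (10.0%) after DSS minus baseline. Of all genes, 0.0149% passed the adjusted threshold for *Mtg16-/-* and 0.0153% for *Mtg16 T/T* in distal minus proximal, 0.0604% for *Mtg16 T/T* after DSS minus baseline, and 0.0% in both others.

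**Figure D2:**
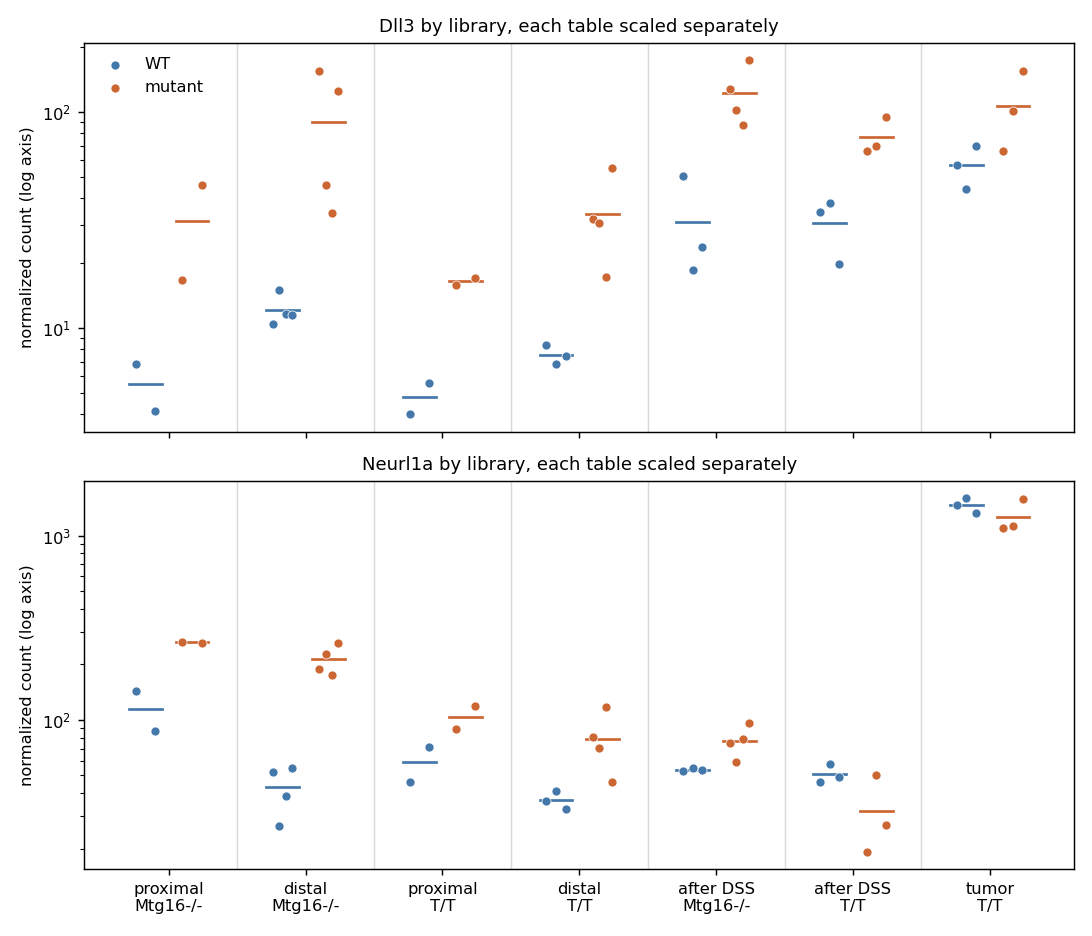
Normalized counts (log axis) of *Dll3* (top) and *Neurl1a* (bottom) in each library of the 7 genotype comparisons, each scaled within its own table. Points are libraries, blue for WT and orange for mutant, and lines are means. *Dll3* is higher in every mutant than in every WT library in all panels except the tumors, and the counts of *Neurl1a* are highest in tumors, at 1095 to 1569 in *Mtg16 T/T* and 1318 to 1594 in WT.

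*Dll1*, a Delta ligand of secretory progenitors, stood higher in baseline *Mtg16 T/T* crypts, without passing by limma. Proximal counts were 898 and 1183 in *Mtg16 T/T* and 499 and 555 in WT (log2 fold change 0.97 ± 0.16, SE; limma adjusted p = 0.11). Distal counts were 1036, 1289, 1238 and 1365 in *Mtg16 T/T* and 751, 768 and 746 in WT (log2 fold change 0.70 ± 0.11, SE; limma adjusted p = 0.271). Neither pair of groups overlapped. In the distal libraries goblet markers summed to 622847 to 734869.9 in *Mtg16 T/T* against 495414 to 596401 in WT (4 of 8 with a positive fold change) and enteroendocrine markers also stood apart (12 of 12 positive), and their part was not tested. The distal difference passed by DESeq2 (adjusted p = 2.9e-05) and by limma without *Mtg16 T/T* replicate 1 (0.0307), a library whose counts leaned to short transcripts, by -0.18 on the log2 scale per doubling of length. In *Mtg16-/-* crypts *Dll1* was 819 and 1095 against 439.7 and 687 in WT proximally, with no overlap, and 1427, 1262, 1006 and 1271 against 1198, 953, 829 and 731 distally, with overlap (limma adjusted p = 0.704 and 0.924). After DSS the groups overlapped in both lines, with log2 fold changes of 0.06 in *Mtg16-/-* and -0.22 in *Mtg16 T/T*. The *Mtg16 T/T* difference after DSS minus that at baseline was -0.92 ± 0.21 (SE), adjusted p = 0.174 by limma. In tumors *Dll1* ranged from 526 to 732 in *Mtg16 T/T* and from 494 to 683 in WT.

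*Dll4*, the other Delta ligand of crypts, differed little by genotype. Its log2 fold changes lay between -0.25 (*Mtg16 T/T* after DSS) and 0.17 (distal *Mtg16 T/T* at baseline), and its groups overlapped in all comparisons except proximal *Mtg16 T/T*, with 895 and 903 against 822 and 788 in WT. *Jag1*, the Jagged ligand, had its largest difference after DSS. Its counts there were 1253, 1188 and 792 in *Mtg16 T/T* and 637, 552 and 847 in WT, and 3719, 2004, 2248 and 3106 in *Mtg16-/-* against 2259.6, 1839.5 and 1741 in WT. Both pairs of groups overlapped and the limma adjusted p was 0.561 and 0.443. At baseline *Jag1* had log2 fold changes of 0.40 and 0.25 in proximal *Mtg16-/-* and *Mtg16 T/T* crypts, without overlap, and 0.08 and 0.22 in distal ones, with overlap.

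The receptors stood higher in proximal mutant crypts, with 2 libraries a genotype and no call by limma. *Notch1* counts there were 2695 and 2788 in *Mtg16-/-* against 1585 and 1982 in WT (log2 fold change 0.63, limma adjusted p = 0.402) and 2025 and 2237 in *Mtg16 T/T* against 1604 and 1589 in WT (0.41, limma adjusted p = 0.207). *Notch2* counts were 689.9 and 648 in *Mtg16-/-* (WT 499 and 449.6) and 533 and 594 in *Mtg16 T/T* (WT 480.5 and 448), with log2 fold changes of 0.50 and 0.28 (limma adjusted p = 0.719 and 0.468). The groups did not overlap for either receptor in either line. Enteroendocrine markers stood apart in these libraries, with the sums given for *Dll3* (11 of 12 with a positive fold change in *Mtg16-/-* and 12 of 12 in *Mtg16 T/T*), and so did those of other cell types. In *Mtg16-/-* goblet markers summed to 532941 to 634182 against 394741 to 449938 in WT, though only 2 of 8 tested had a positive fold change (median log2 -0.52, 1 higher and 1 lower by limma). Plasma and B cell markers summed to 2043 to 2415 against 516 to 1425 (5 of 5 positive), fibroblast markers to 558 to 872 against 438 to 506 (6 of 6) and myeloid markers to 585 to 999 against 497 to 572 (3 of 4). Endothelial markers summed to 302 to 303 against 161 to 298 (3 of 3 positive) and glial and neuronal markers to 35.9 to 38 against 10.3 to 24 (1 of 1). In *Mtg16 T/T* goblet markers summed to 376292 to 393039 against 325582 to 332539.8, with 3 of 8 positive (median log2 -0.30), endothelial markers to 212 to 267 against 156 to 180.3 (2 of 2), glial and neuronal markers to 21.2 to 48.3 against 13.9 to 14.1 (1 of 1), and myeloid markers, lower there, to 524 to 539 against 695 to 701 (1 of 4). Their part in the receptor values was not tested. Distally and after DSS both receptors overlapped between genotypes, with log2 fold changes from -0.11 to 0.34. The *Notch1* difference in *Mtg16-/-*, distal minus proximal, was -0.72 ± 0.22 (SE), adjusted p = 0.943 by limma. In tumors *Notch1* lay at 6156, 5279.6 and 6749 in *Mtg16 T/T* against 5549, 6650.4 and 8112 in WT and *Notch2* at 3246, 3501 and 3677 against 3229, 3134 and 3885, which overlapped.

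*Lfng* and the effectors gave no call between genotypes by limma. Distal *Lfng* was 939, 896, 782 and 784 in *Mtg16 T/T* against 775, 729.8 and 688 in WT, which did not overlap, and 1051, 942, 757 and 1057 in *Mtg16-/-* against 979, 931, 872 and 894 in WT, which did (limma adjusted p = 0.863 and 1). *Hes1* had distal counts of 3208, 3092, 2436 and 5034 in *Mtg16-/-* and 3767, 3025, 2853 and 3511 in WT, a log2 fold change of 0.02 ± 0.21 (SE; limma adjusted p = 1). The spread of *Hes1* in these *Mtg16-/-* libraries enclosed all WT values. *Hes6* had distal counts of 3674, 2648, 2936 and 3419 in *Mtg16-/-*, again around the WT counts of 3312, 3369, 3496 and 3415, a log2 fold change of -0.11 ± 0.11 (SE; limma adjusted p = 1). Over the 7 comparisons the log2 fold changes of *Lfng* ran from -0.32 to 0.39, those of *Hes1* from -0.30 to 0.25 and those of *Hes6* from -0.32 to 0.28. *Hes1* in proximal *Mtg16 T/T* crypts, at 2445 and 2396 against 1951 and 2125 in WT, was the 1 case without overlap for the effectors.

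**Figure D3:**
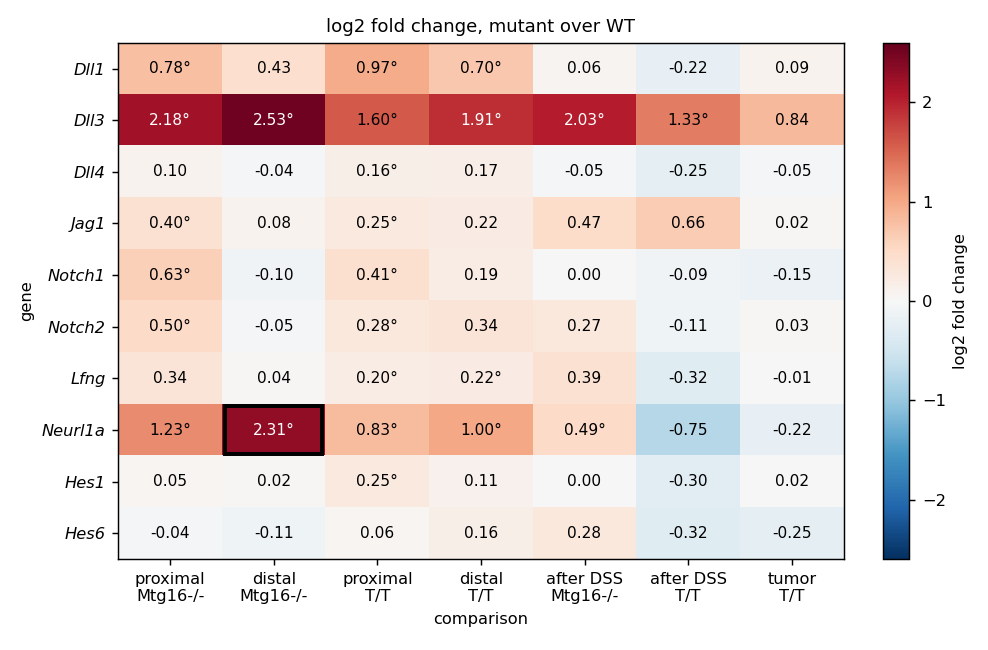
Log2 fold change, mutant over WT, of the 10 genes (rows) in the 7 genotype comparisons (columns), with red for higher and blue for lower in the mutant. A degree sign marks groups that did not overlap, and the black frame marks the 1 value past the limma threshold, *Neurl1a* in distal *Mtg16-/-* crypts at 2.31. *Dll3* is positive in all 7 columns.

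Groups without overlap were counted over the members and set beside the same share of all genes. In proximal *Mtg16-/-* crypts 6 of 10 members were higher without overlap, against 17.5% of all genes tested, and in proximal *Mtg16 T/T* crypts 9 of 10, against 22.6%. In both, *Dll3* is among them and passed the minimum count only through the mutant group, and without it the counts were 5 of 9 and 8 of 9. The median log2 fold change of the members was 0.45 and 0.26 in these comparisons, beside 0.003 and -0.009 over all genes. In distal *Mtg16-/-* crypts 2 were higher without overlap (2.58% of all genes) and in distal *Mtg16 T/T* crypts 4 (4.39%), or 3 of 9 without *Dll3*, which passed there in the same way. After DSS 2 were so in *Mtg16-/-* (6.18%) and 1 in *Mtg16 T/T* (5.66%), and in tumors 0 (2.98%). No member was lower without overlap in any of the 7, against 18.1%, 22.9%, 1.17%, 3.31%, 5.26%, 8.02% and 2.53% of all genes, in the same order.

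The count of members called by limma was 0 in proximal *Mtg16-/-*, where 0.0645% of all genes were called, 0 in proximal *Mtg16 T/T* (0.232%), 0 in distal *Mtg16 T/T* (0.0369%), 0 in *Mtg16-/-* after DSS (0.629%) and 0 in *Mtg16 T/T* after DSS and in tumors (0.0% each). At an unadjusted limma p under 0.05 the members counted 5, 5, 3, 1, 2 and 0 of 10 in that order, against 5.96%, 12.0%, 4.65%, 12.4%, 8.77% and 2.47% of all genes, and 3 in distal *Mtg16-/-*, against 4.63%. *Dll3* is 1 of those counted in proximal *Mtg16-/-*, proximal *Mtg16 T/T* and distal *Mtg16 T/T*, where it passed the minimum count only through the mutant group. DESeq2, where reads could be recovered, called 2 members in distal *Mtg16-/-* (*Dll3* and *Neurl1a*, 1.45% of all genes), 2 in distal *Mtg16 T/T* (*Dll1* and *Dll3*, 0.392%), 1 in each line after DSS (*Dll3*, 5.02% in *Mtg16-/-* and 2.45% in *Mtg16 T/T*) and 0 in tumors (0.151%). In distal *Mtg16 T/T* the call of *Dll3* is of a gene that passed the minimum only through the mutants. edgeR called *Neurl1a* in distal *Mtg16-/-* (0.21% of all genes) and no other member in these 5 comparisons, where it called 0.0369% of all genes in distal *Mtg16 T/T*, 0.601% in *Mtg16-/-* after DSS and 0.0% in both others. The exact permutation test could not go below 0.333 with 2 against 2, 0.0571 with 4 against 3 or 0.1 with 3 against 3.

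The other genes of the pathway, 53 beyond the members, gave 1 call between genotypes by limma. It was 1 of 51 tested in *Mtg16-/-* after DSS, where 0.629% of all genes were called. The list held further ligands, receptors, modifiers, proteases, inhibitors, nuclear partners and HES and HEY factors, and 46 to 51 of them were tested in each of the 7 comparisons. The gene called by limma was *Dlk1*, a Delta-like protein without the ligand's receptor-binding domain, which fell in *Mtg16-/-* crypts after DSS to 95.1 ± 63.5 (SD, n = 4) from 1025 ± 437 (SD, n = 3) in WT (log2 fold change -3.55, limma adjusted p = 0.0226). In *Mtg16 T/T* crypts after DSS *Dlk1* ranged from 70.8 to 188 against 816 to 989 in WT, a log2 fold change of -2.78 that did not pass (limma adjusted p = 0.149). At baseline its mean count was also lower in the mutants, at 11.2 against 267 in distal *Mtg16-/-* (log2 fold change -4.19, limma adjusted p = 0.104), 30.2 against 143 in distal *Mtg16 T/T* (-2.42, 0.863 by limma), 4.79 against 51.7 in proximal *Mtg16-/-* (-3.07, 0.326 by limma) and 11.7 against 132 in proximal *Mtg16 T/T* (-2.77, 0.406 by limma). In tumors it was 148 against 441 (-1.72, 0.998 by limma). The groups of *Dlk1* did not overlap in any of the 7 comparisons, and 6 of the 7 did not pass. Those 6 comparisons had 0 of 46 to 50 such pathway genes called by limma, where 0.0% to 0.239% of all genes were called.

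Between segments of WT colon, 4 of the 9 members tested changed, 3 higher distally and 1 lower, against 42.1% of all genes (20.1% higher and 22.0% lower), and *Hes6* and *Dll1* were higher distally. The 7 distal and 4 proximal libraries here also serve as controls of the genotype comparisons. *Hes6* had its lowest, median and highest counts at 3081, 3281 and 3401 in distal crypts, and 1846, 2132, 1778 and 2025 in the proximal ones. Every distal library lay above every proximal one (log2 fold change 0.75 ± 0.062, SE; limma adjusted p = 3.82e-07; exact permutation p = 0.00606, the smallest that 7 against 4 allows). *Dll1* was 715, 809 and 1170.3 distally by the same 3 measures, and 513, 408, 577 and 645 proximally, again apart (0.69 ± 0.14, SE; limma adjusted p = 0.00129). The proximal libraries carried request numbers 4149 and 5582 and the distal ones 5094 and 4149. Within 4149, with 2 libraries a segment, *Hes6* kept a log2 fold change of 0.70 (limma adjusted p = 0.0117), and *Dll1* had 0.57 (limma adjusted p = 0.216, or 0.1 with the number as a covariate over all libraries).

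*Lfng* was higher and *Neurl1a* lower in the distal segment. *Lfng* had lowest, median and highest counts of 746, 848 and 956 distally and counts of 659.7, 611, 624 and 892 proximally, where a single library reached into the distal range. Its log2 fold change of 0.30 ± 0.11 (SE) passed narrowly by limma (adjusted p = 0.0415) and did not pass by edgeR (0.0509), nor by limma with upper-quartile scaling (0.056), within request 4149 (0.59) or with the request number as a covariate (0.426). With 1 library left out its limma adjusted p lay between 0.00271 and 0.128, and the call held only without distal P209T-colony replicate 2 or 3 or without proximal Mtg16-null-colony replicate 2, the proximal library that reached into the distal range. *Neurl1a* had 25.9, 38.9 and 54 distally, lowest, median and highest, against 47.6, 134, 74.4 and 81.4 proximally, overlapping in range (log2 fold change -0.96 ± 0.27, SE; limma adjusted p = 0.0108). Within request 4149 its log2 fold change was -1.19 (limma adjusted p = 0.106), with 2 libraries a segment, and with the number as a covariate the adjusted p was 0.0462 by limma. Enteroendocrine markers summed to 13136 to 15938 distally and 17657 to 21123 proximally, but the list went both ways (6 of 12 with a positive fold change, 4 higher and 5 lower by limma). Goblet markers summed to 529286 to 976300 and 334928 to 417213 (5 of 8 positive, 4 higher and 2 lower by limma). Stem cell markers summed to 13735 to 15859 distally and 9168 to 10762 proximally, and T cell markers to 275 to 1103 and 1886 to 3052. Smooth muscle markers summed to 74.5 to 182 and 37.2 to 69.3 (3 of 4 tested with a positive fold change, 1 higher by limma). Their part in these differences was not tested.

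*Notch1* missed the threshold narrowly between segments, with lowest, median and highest counts of 1620.1, 2009.8 and 2779.8 distally and counts of 1650.3, 1470, 1652 and 1859 proximally (log2 fold change 0.36 ± 0.14, SE; limma adjusted p = 0.0508, edgeR 0.0383, DESeq2 0.0244). *Dll3* stayed under the minimum mean count, at 7.33 to 14.7 distally and 4.14, 6.37, 5.8 and 3.88 proximally. Its groups did not overlap, on 4 to 18 reads a library, and without the minimum its log2 fold change was 0.89 (limma adjusted p = 0.0227). *Dll4*, *Jag1*, *Notch2* and *Hes1* overlapped and did not pass, with log2 fold changes of 0.06, -0.03, 0.25 and 0.18. Of the 10 members, 3 were higher without overlap (*Dll1*, *Dll3* and *Hes6*), and none lower, against 14.1% and 15.9% of the genes that passed the minimum.

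Of 48 other pathway genes tested, 24 changed between segments by limma, 13 higher distally and 11 lower, beside 42.1% of all genes changed, 20.1% higher and 22.0% lower. The largest was *Notch4*, a receptor known from endothelium, at 1196 ± 150.4 (SD, n = 7) distally and 157 ± 14.4 (SD, n = 4) proximally (log2 fold change 2.92, limma adjusted p = 1.91e-10). The 7 listed of 8 endothelial markers (*Pecam1*, *Cdh5* and others) summed to 268 to 382 distally and 149 to 279 proximally, and their part in the *Notch4* difference was not tested. *Dner*, a ligand of the nervous system, was also higher distally (log2 fold change 1.20). Lower distally were *Heyl* (log2 fold change -2.34), a transcriptional effector, *Dtx1* (-1.41), a ubiquitin ligase of Notch, *Maml2* (-1.25), a coactivator of the receptor's nuclear form, and *Numbl* (-1.16), an endocytic inhibitor, with limma adjusted p between 0.00153 and 0.0409 for these 4.

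After DSS, WT distal crypts of the P209T colony had 5 of 10 members higher than at baseline by limma, against 14.0% of all genes higher and 35.6% changed either way. The members called were *Dll3*, *Dll4*, *Notch1*, *Lfng* and *Hes6*, and of these *Dll3* passed the minimum count only through the DSS group. All DSS libraries carried request number 5740 and all baseline libraries 5094, so DSS and the request number cannot be told apart. Of the 3 DSS libraries, 2 leaned to short transcripts, with log2 changes per doubling of length of -0.22, -0.31 and 0.07 in replicates 1 to 3, against 0.17, 0.15 and 0.15 at baseline. The libraries are also those of the *Mtg16 T/T* comparisons.

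*Dll3* counts were 31.8, 35.1 and 18.8 after DSS and 9.7, 7.87 and 8.61 at baseline (log2 fold change 1.56 ± 0.34, SE; limma adjusted p = 0.019). It passed the minimum count only through the DSS group, and without that minimum the adjusted p was 0.0228 by limma. *Dll4* counts were 1799.8, 1469.9 and 1104 after DSS and 925, 957 and 877 at baseline (0.64 ± 0.20, SE; limma adjusted p = 0.0444, or 0.0512 with no minimum). In both ligands each DSS library lay above each baseline library, and replicate 3 was the lowest of the DSS libraries. *Notch1* showed the same order, with 3419, 3506 and 2803 after DSS and 2144, 1914 and 1726 at baseline (0.75 ± 0.14, SE; limma adjusted p = 0.0146). *Lfng* counts were 1489, 1529.8 and 1119.5 and 899.9, 837 and 795 (0.70 ± 0.16, SE; limma adjusted p = 0.0226). *Hes6* counts were 6365, 6425 and 4986 and 3375, 3309 and 3588 (0.78 ± 0.13, SE; limma adjusted p = 0.0117). Both were again apart. *Hes1*, the canonical target, did not pass, at 4313, 4150.2 and 3314 after DSS and 2079, 2933 and 3391 at baseline, where replicate 3 at baseline lay within the DSS range (0.51 ± 0.21, SE; limma adjusted p = 0.0957).

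*Dll1* and *Notch2* were higher in every DSS library without passing by limma (log2 fold changes 0.27 and 0.37, adjusted p = 0.12 and 0.14), and both passed once the length trend was removed (log2 fold changes 0.64 and 1.38). In all, 7 of 10 members (6 of 9 without *Dll3*) were higher without overlap and none lower, against 26.0% and 29.3% of all genes. *Jag1* counts of 586, 512 and 802 and 843, 723 and 620.1 overlapped (log2 fold change -0.22), as did *Neurl1a* counts of 42.2, 53.8 and 46.5 and 42.4, 47.2 and 38.1 (log2 fold change 0.15). No exact permutation test could go below 0.1 here. These calls depended on single libraries, since without baseline replicate 1, baseline replicate 2 or DSS replicate 1 none of the 10 was called by limma, without baseline replicate 3 there was 1 call, without DSS replicate 2 there were 2, and without DSS replicate 3 there were 8, 7 higher and *Jag1* lower (log2 fold change -0.40, limma adjusted p = 0.0499). With 1 library left out the log2 fold changes lay between 1.39 and 1.83 for *Dll3*, 0.47 and 0.82 for *Dll4*, 0.67 and 0.85 for *Notch1*, 0.61 and 0.84 for *Lfng* and 0.72 and 0.90 for *Hes6*. Over all genes 1897 were higher and 2936 lower. Upper-quartile scaling gave 2855 and 2732 and moved the median gene to 0.148 on the log2 scale.

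**Figure D4:**
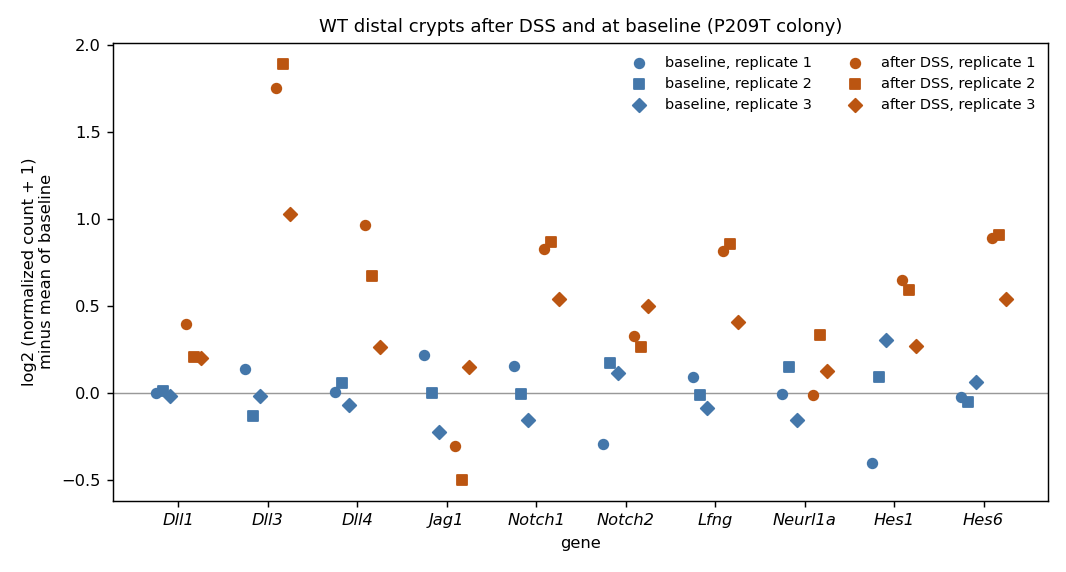
Log2 (normalized count + 1) minus the mean of the baseline libraries, for the 10 genes in 3 WT distal libraries after DSS (orange) and 3 at baseline (blue), with a marker shape for each replicate number. *Dll3* has the largest rise, *Jag1* and *Neurl1a* overlap between groups, and DSS replicate 3 lies nearer to baseline than the other DSS libraries for *Dll3*, *Dll4*, *Notch1*, *Lfng*, *Hes1* and *Hes6*.

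Goblet markers summed to 1081232 to 1204656 after DSS and 568487 to 692909 at baseline (8 of 8 with a positive fold change, 5 higher and 0 lower by limma), and enteroendocrine markers to 17539 to 23423 and 15309 to 17119 (7 of 12 positive, 4 higher and 2 lower by limma). Fibroblast markers summed to 627 to 931 and 226 to 374, with 3 of 5 tested higher by limma, and epithelial markers to 1088651 to 1500730 and 919845 to 1041573. Myeloid markers, 2 of 7 higher by limma, summed to 591 to 1318 and 482 to 598 and overlapped. Lower after DSS were the sums of plasma and B cell markers (at most 382 against 428 to 872) and of glial and neuronal markers (4.13 to 12.2 against 17 to 32). Their part in these differences was not tested. Of 47 other pathway genes tested, 21 changed by limma, 13 higher and 8 lower, beside 35.6% of all genes changed and 14.0% higher. *Dlk1* rose from 166 ± 78.4 to 848 ± 72.3 (SD, n = 3 each; log2 fold change 2.44, limma adjusted p = 0.00814). The largest falls were in *Maml2* (log2 fold change -2.39), *Mib1* (-2.01), a ubiquitin ligase that readies ligands, and *Adam10* (-2.0), a protease that cuts the receptor. Next were *Itch* (-1.92), a ubiquitin ligase, and *Cir1* (-1.78), an RBPJ corepressor. The limma adjusted p of these genes lay between 0.0123 and 0.0299. The counts of *Adam10* fell from 8845 ± 316 at baseline to 2548 ± 1756 after DSS (SD, n = 3 each; limma adjusted p = 0.0182), and *Mib1* had 991 ± 857 (SD, n = 3) after DSS. In WT of the Mtg16-null colony *Adam10* stood at 8197 ± 255 (SD, n = 4) at baseline and 9648 ± 3058 (SD, n = 3) after DSS. Mean counts there were 3253 and 3544 for *Mib1*, 4920.4 and 5078 for *Itch*, 1320.1 and 1236 for *Cir1* and 23.3 and 61.6 for *Maml2*. These values were scaled separately, and the cause of the difference between colonies was not tested.

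Tumors and crypts were in tables scaled separately, so their levels are given side by side with no test. *Neurl1a* ranged from 1318 to 1594 in the 3 WT tumors, against 38.1 to 47.2 in WT distal crypts at baseline, and *Notch2* from 3134 to 3885 against 418 to 579. *Hes6* ranged from 10717 to 13877 against 3309 to 3588, and *Hes1* from 3329 to 3982 against 2079 to 3391. Tumors were taken whole, and in them the 8 endothelial markers summed to 10860.2 to 12949.9 in WT, against 303 to 385 in those crypts. Between genotypes in tumors all 10 members overlapped and none passed by limma, with log2 fold changes of -0.25 (*Hes6*) to 0.84 (*Dll3*) and adjusted p of 0.998 throughout.

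Among the genes whose pattern over libraries was most like that of *Dll3* were *Neurog3*, a factor that starts the enteroendocrine fate and 1 of the 12 markers above (Pearson r = 0.916), and *Dbn1* (0.874), over 42 libraries after each table was centred on its mean. The genes most like *Neurl1a* were *Kif1a* (0.807), *Syt13* (0.797) and *Ptprn* (0.785). *Hes6* was most like *Exoc7* (0.914), *Lfng* like *Csk* (0.863), *Dll1* like *Vps9d1* (0.794), *Notch1* like *Arid1a* (0.829), *Dll4* like *Dhx8* (0.799), *Hes1* like *Ccdc166* (0.796), *Notch2* like *Dync1h1* (0.738) and *Jag1* like *Plekho1* (0.703). Among the 45 pairs of members the highest r was that of *Hes6* with *Lfng* (0.716) and the lowest that of *Hes1* with *Jag1* (-0.49). *Dll3* had r = 0.641 with *Dll1* and 0.616 with *Neurl1a*. These values describe the libraries, which share genotype, depth and transcript-length differences within a table.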

How the data were processed

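RNA of crypt isolates and tumors was sequenced as paired-end reads of 150 bp after poly(A) selection. As the authors and the deposited labels describe it, reads were trimmed with fastp 0.20.0, quantified with Salmon 1.3.0 against a decoy-aware GENCODE vM21 index (GRCm38), summed to genes and normalized by size factors in DESeq2 1.26.0 (R 3.6.3). The values the authors deposited are thus a signal: normalized counts per gene and library, scaled separately in each of 9 tables. The tables also hold the authors' own fold changes and p-values, which were not used. In 7 tables dividing by the step between low values gave whole reads (within 0.01) for 100% of values. From these values, limma 3.58.1 (trend option, R 4.3.3) was fitted to log2(normalized count + 1), a scale that understates the fold changes of low genes. Genes entered with a table mean of 10 or more, p-values were adjusted by Benjamini and Hochberg's method over every gene entered, and the threshold was 0.05. Groups were those of the labels, and each comparison used the libraries of 1 table. Each member also had a two-sided exact permutation test (scipy 1.17.1). Effects in 2 tables without shared libraries were compared by the difference of their log2 fold changes, with Welch-Satterthwaite degrees of freedom.

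Alternatives were a pseudocount of 0.1, no minimum count, upper-quartile scaling, the replicate number as a block, the request number as a covariate or held fixed, leaving out each library, and count models of the recovered reads (DESeq2 1.42.0, edgeR 4.0.16). Removal of a trend with transcript length was added after seeing the data. Same-numbered libraries were taken as pairs only for *Mtg16-/-* and WT after DSS, where their deviations from the group means correlated in every pair (r = 0.317 to 0.554), a hint from the data and not from the labels. Named beyond the members were *Cbfa2t3*, at most 6 called pathway genes per comparison with the largest fold changes, and the genes most like each member in Pearson r (14695 genes), of which 1 is not reported here. *Dlk1*, where it was not called, was named after its values were seen. Members and lists were chosen with earlier results of these data known. The analysis was tested on simulated data.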

Additional observations from a re-analysis of the deposited data

Results flagged for a closer look

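*Hes1* in *Mtg16-/-* distal crypts after DSS had 1 library far from the others. Replicate 1 had a normalized count of 4257, whereas the other 3 lay between 3505 and 3531. The gap to the nearest library was 0.965 of the whole range of the group, above Dixon's 95% critical value for 4 samples. In all 60 groups of 4 to 10 libraries were examined in this way, and chance alone marks about 1 group in 20. The *Hes1* comparison of this table did not pass with or without this library (limma adjusted p between 0.745 and 1 when 1 library was left out).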

How the results depend on the processing

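Of 2114 values of single members recomputed under an alternative, 2040 kept their side of the threshold, 23 passed it newly, 51 no longer passed it and 0 reversed after a call, and 129 that passed in neither case changed sign. The number of members called, 1 in distal *Mtg16-/-*, became 0 with the replicate block, with the request number as a covariate and within request 4149 and 5094, 2 with DESeq2, and 0 to 2 with 1 library left out. The 0 of proximal *Mtg16 T/T* became 1 with the replicate block (*Dll1*, limma adjusted p = 0.0324). The 0 of distal *Mtg16 T/T* became 2 with DESeq2 and 0 to 1 with 1 library left out. The 0 of *Mtg16-/-* after DSS became 1 with the replicate block, 1 with the length trend removed, 1 with DESeq2 and 0 to 1 with 1 library left out, and the 0 of *Mtg16 T/T* after DSS became 1 with DESeq2. The 4 of the WT segments became 2 with the request number as a covariate, 1 within request 4149 and 3 to 5 with 1 library left out, and the 5 of WT after DSS ran from 0 to 8. Proximal *Mtg16-/-*, tumors and the 5 differences stayed at 0 under each alternative run. The replicate block pairs libraries only for *Mtg16-/-* after DSS. Elsewhere same-numbered libraries shared only a number (r from -0.766 to 0.369 over all pairs), and the block also took *Lfng* in WT segments to 0.0691, *Dll4* in WT after DSS to 0.0713 and *Notch1* in WT segments to 0.0356 (limma adjusted p). Over all genes the counts called moved by over 1.5 times from 33 to 1 (block), 8 (request covariate), 2 (within 4149), 0 (within 5094) and 200 (DESeq2) in distal *Mtg16-/-*, from 9 to 32 (block) in proximal *Mtg16-/-*, from 32 to 151 (block) and 2 (no minimum) in proximal *Mtg16 T/T*, from 5 to 0 (block) and 53 (DESeq2) in distal *Mtg16 T/T*, from 91 to 1271 (block), 226 (length trend removed) and 727 (DESeq2) in *Mtg16-/-* after DSS, from 0 to 334 (DESeq2) and 13 (length trend removed) in *Mtg16 T/T* after DSS, from 4833 to 2679 (block) in WT after DSS, from 5824 to 3189 (request covariate) and 2014 (within 4149) in WT segments, and from 0 to 24 (DESeq2), 1 (no minimum) and 1 (length trend removed) in tumors. Removing the length trend moved the split in WT after DSS to 3814 higher and 2587 lower and the median gene to 0.216 (log2), and the split of *Mtg16-/-* after DSS from 55 higher and 36 lower to 107 and 119. The cause of these shifts was not tested. With 2 libraries a genotype proximally, and *Dll3* at 4 to 18 reads in WT baseline crypts, the data limit what can be called, and no counts test was run on the 2 proximal mutant tables.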
